A study of Ovis aries with 9 samples.

Results

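The 10 genes AIF1, CX3CR1, P2RY12, CSF1R, C1QA, C1QB, C1QC, TREM2, TYROBP and TMEM119, which are widely used as markers of microglia, were examined in hypothalamus RNA of Dolang sheep. They were found by their symbols in the RefSeq sheep annotation, and the FPKM values (sequenced fragments of a transcript, scaled by transcript length and sequencing depth) of their 27 annotated mRNA transcripts were summed for each gene. They are 10 of the 21284 genes with such transcripts, and all 10 passed the filter that left 14238 genes for testing, a mean of at least 0.5 FPKM in at least 1 stage. The hypothalamus was taken from 9 ewes, with 3 biological replicates at prepuberty (120 to 121 days of age), 3 at puberty (130 to 131 days) and 3 at postpuberty (150 to 151 days). All ewes were of the same breed and were kept in the same way. No treatment is described for them apart from pentobarbital sodium, given to each ewe before dissection. Puberty was judged from the behaviour of the ewe and from mucus at the vulva. Each library is named here by its stage and replicate number. The question was at what level these genes were measured, whether they varied together across animals, and whether they differed between the stages.

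Microglia are the resident macrophages of the brain and are maintained by signalling through the receptor encoded by CSF1R. In undisturbed tissue they are recognised by surface proteins such as P2RY12, TMEM119 and CX3CR1, through which they sense nucleotides and the neuronal chemokine fractalkine, while TREM2 and its partner TYROBP accompany phagocytosis and lipid sensing. Microglia are also a main source of C1q in the brain, the protein complex of C1QA, C1QB and C1QC chains that starts the classical complement cascade and takes part in the tagging of synapses.

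Total FPKM over the whole table was 359588 to 398109 in 8 libraries but 599726 in Puberty 2. The number of genes at 0.5 FPKM or more was 12985 to 13687 in those 8 libraries and 10970 in Puberty 2. Results are therefore given with and without Puberty 2. Of 14 genes taken as markers of hypothalamic cells, 7 passed the filter. Among these, the highest values were 118 FPKM for CRH, 107 for SST, 36.8 for TRH and 22.4 for POMC. AVP reached 10.4, OXT 4.81 and HCRT 1.68 FPKM. The 118 FPKM of CRH was that of Prepuberty 1, and CRH had 0.392 to 7.14 FPKM in the other libraries. Of the genes that did not pass, GNRH1 was listed at 0 in every library. AGRP, SIM1 and NKX2-1 had highest values of 0.169, 0.111 and 0.262 FPKM. The summed FPKM of 9 neuronal marker genes ranged from 333 in Puberty 2 and 441 in Postpuberty 1 to 1800 in Postpuberty 3, so that the libraries differed in neuronal RNA. In bulk RNA, fewer microglia and less RNA of a gene per microglial cell cannot be told apart.

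All 10 genes were detected in all 9 libraries, and the lowest value of any of them was 5.6 FPKM. Their levels, ordered by the median over the 9 libraries, were 41.6 FPKM for CSF1R, 40.4 for TYROBP, 36 for C1QB, 24.4 for C1QC, 19.6 for AIF1, 17.9 for TMEM119, 15.7 for CX3CR1, 14.9 for both P2RY12 and C1QA, and 14.1 for TREM2. FPKM is scaled by transcript length, so these levels can be set side by side. Compared within libraries, C1QB was above its neighbour C1QC in 9 of 9, with ratios of 1.06 to 2.4. In the other 8 neighbouring pairs the gene with the higher median was above the other in 2 to 6 of the 9 libraries, so that their order was not held across animals. For example, CSF1R was above TYROBP in 5 libraries, with ratios of 0.424 to 1.4.

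**Figure D1:**
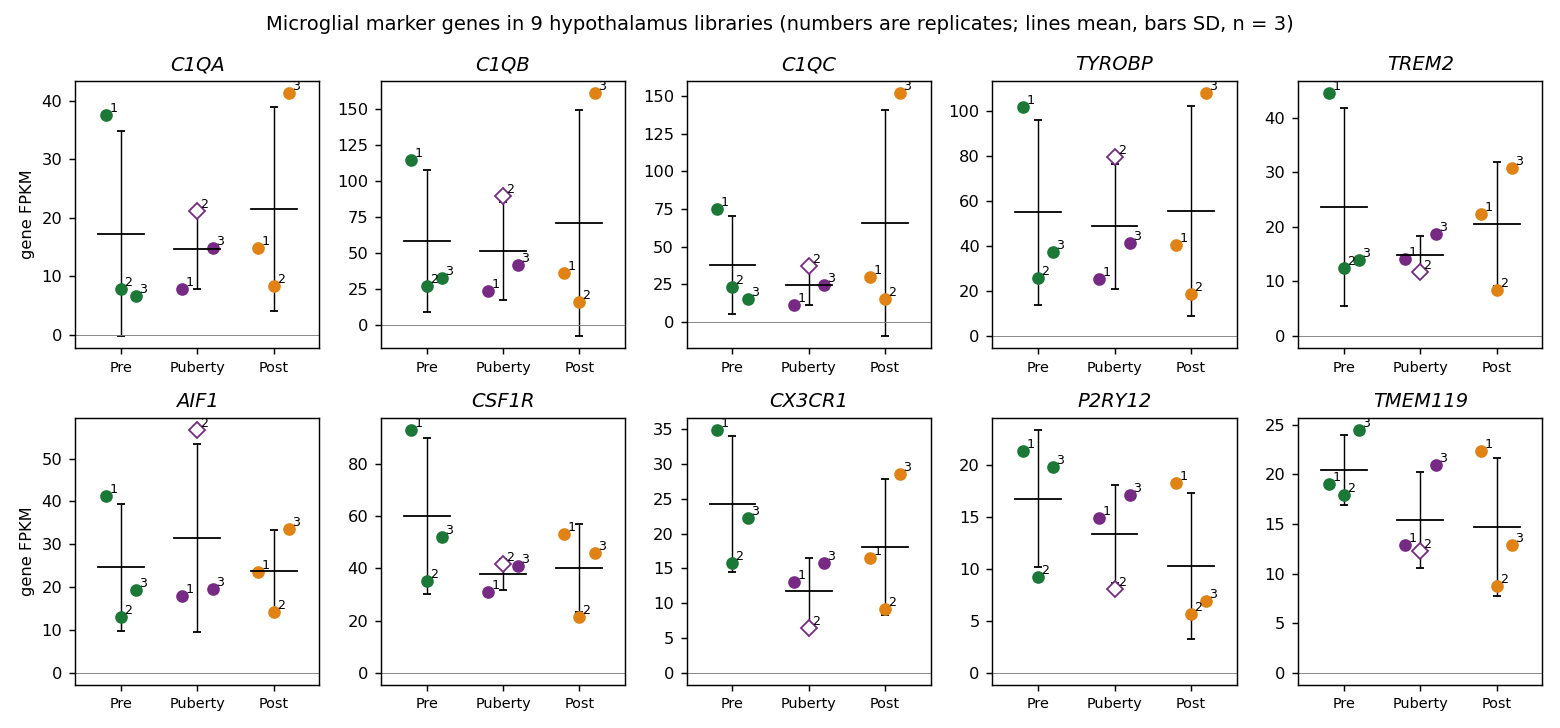
Gene FPKM (vertical axis) of the 10 microglial marker genes in each of the 9 libraries, by stage, with the replicate number beside each point. Horizontal lines are stage means and bars are 1 SD (n = 3), and the open diamond is Puberty 2. Prepuberty 1 and Postpuberty 3 stand high for the C1Q genes and TYROBP, with C1QB at 115 and 161 FPKM, while P2RY12 was at 6.85 FPKM in Postpuberty 3.

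Among the receptors of undisturbed microglia, CX3CR1, the fractalkine receptor, is at chr19:12567082-12580790 (positions of all genes are of ARS-UI_Ramb_v3.0). It had 34.9, 15.7 and 22.2 FPKM at prepuberty, 13, 6.36 and 15.7 FPKM at puberty, and 16.5, 9.16 and 28.5 FPKM at postpuberty. Prepuberty 1 was the highest library and Puberty 2 the lowest, and the stages overlapped. The stage means were 24.3 ± 9.74, 11.7 ± 4.82 and 18 ± 9.76 FPKM (SD, n = 3 each).

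P2RY12, the ADP receptor that guides microglial processes towards injury (chr1:237448661-237497201), had 21.3, 9.18 and 19.8 FPKM at prepuberty. It had 14.9, 8.07 and 17.1 FPKM at puberty, and 18.3, 5.6 and 6.85 FPKM at postpuberty. Postpuberty 2 and Postpuberty 3 were the 2 lowest libraries, and Postpuberty 1 lay within the range of the other stages. Its stage means were 16.8 ± 6.61, 13.3 ± 4.7 and 10.2 ± 6.97 FPKM (SD, n = 3 each).

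TMEM119, a membrane protein used to tell microglia from macrophages that enter the brain (chr17:64488549-64503976), had 19, 17.9 and 24.5 FPKM at prepuberty. It had 12.9, 12.3 and 21 FPKM at puberty and 22.4, 8.76 and 12.9 FPKM at postpuberty. Its spread was the smallest of the 10 genes, with a 2.8-fold ratio between the highest and the lowest library, and the stages again overlapped. Its stage means were 20.5 ± 3.55, 15.4 ± 4.86 and 14.7 ± 7.01 FPKM (SD, n = 3 each).

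CSF1R, the receptor for the survival factors CSF1 and IL34 (chr5:59152070-59183558), had 93.1, 35.1 and 52.1 FPKM at prepuberty, 30.9, 41.6 and 40.8 FPKM at puberty, and 53.1, 21.3 and 46 FPKM at postpuberty. Prepuberty 1 stood apart at the top and Postpuberty 2 was lowest. The stage means were 60.1 ± 29.8, 37.8 ± 5.95 and 40.2 ± 16.7 FPKM (SD, n = 3 each).

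AIF1 encodes IBA1, an actin-binding protein of microglia and macrophages (chr20:26767044-26791334). It had 41.3, 13.1 and 19.4 FPKM at prepuberty, 18, 56.7 and 19.6 FPKM at puberty, and 23.6, 14.2 and 33.5 FPKM at postpuberty. It was the only member with its highest value in Puberty 2, and without that library its puberty values were within the ranges of both other stages. The stage means were 24.6 ± 14.8, 31.4 ± 21.9 and 23.8 ± 9.63 FPKM (SD, n = 3 each), and the mean of the 2 other puberty libraries was 18.8 FPKM.

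TREM2, a lipid-sensing receptor (chr20:15117455-15122242), had 44.5, 12.4 and 14 FPKM at prepuberty, 14.1, 11.8 and 18.6 FPKM at puberty, and 22.3, 8.43 and 30.8 FPKM at postpuberty. Its stage means were 23.7 ± 18.1, 14.8 ± 3.48 and 20.5 ± 11.3 FPKM (SD, n = 3 each). TYROBP, the adaptor through which TREM2 signals (chr14:45899251-45902119), had 102, 25.8 and 37.2 FPKM at prepuberty, 25.2, 79.4 and 41.5 FPKM at puberty, and 40.4, 18.5 and 108 FPKM at postpuberty. Both genes were high in Prepuberty 1 and Postpuberty 3, but in Puberty 2 the adaptor was high and the receptor low. The stage means of TYROBP were 54.9 ± 41, 48.7 ± 27.8 and 55.8 ± 46.9 FPKM (SD, n = 3 each), so the stages differed by far less than the animals within them.

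The C1Q genes lie together on chr2:243898922-243925458, within 26537 bp and with 1 other annotated gene between them. C1QB had 115, 27 and 33.1 FPKM at prepuberty, 23.6, 89.7 and 42.1 FPKM at puberty, and 36, 16.4 and 161 FPKM at postpuberty. C1QC had 74.9, 22.9 and 15.1 FPKM at prepuberty, 11, 37.4 and 24.4 FPKM at puberty, and 30, 15.2 and 152 FPKM at postpuberty. C1QA had 37.5, 7.79 and 6.67 FPKM at prepuberty, 7.79, 21.2 and 14.9 FPKM at puberty, and 14.9, 8.31 and 41.3 FPKM at postpuberty. For all 3 genes the highest values were those of Prepuberty 1 and Postpuberty 3, followed by Puberty 2, and each stage held libraries that overlapped those of the others. These were the members with the widest spread, with ratios between the highest and lowest library of 13.8 for C1QC, 9.81 for C1QB and 6.19 for C1QA. The stage means of C1QB were 58.4 ± 49.3, 51.8 ± 34.1 and 70.9 ± 78.2 FPKM, those of C1QC 37.7 ± 32.5, 24.3 ± 13.2 and 65.8 ± 75.1 FPKM, and those of C1QA 17.3 ± 17.5, 14.6 ± 6.72 and 21.5 ± 17.5 FPKM (SD, n = 3 each).

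The members varied more between animals than most genes did. In the 9 libraries, the median SD of log2(FPKM + 1) was 0.71 over the 10 members and 0.44 over all genes tested, and in the 8 libraries without Puberty 2 these medians were 0.70 and 0.28. Among those 8 libraries, Prepuberty 1 was the highest for 5 members and Postpuberty 3 for 4, whereas Postpuberty 2 was the lowest for 7. Of all genes tested, 15.6% were highest in Prepuberty 1, 13.5% were highest in Postpuberty 3 and 13.3% were lowest in Postpuberty 2. Prepuberty 1 and Postpuberty 3 were the 2 highest libraries for 7 members (CX3CR1, AIF1, TREM2, TYROBP and the C1Q genes) and for 10.4% of all genes tested. The summed FPKM of the members was 583, 187 and 244 at prepuberty, 171, 365 and 256 at puberty, and 278, 126 and 621 at postpuberty.

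Across libraries most members agreed, while the median agreement of P2RY12 and TMEM119 with the other members depended on Puberty 2 and Postpuberty 3. Agreement was measured for the 45 pairs of members by Pearson's r and Spearman's rho of log2(FPKM + 1), with two-sided exact permutation tests over all orders of the libraries and Benjamini-Hochberg adjustment over the 45 pairs. Over the 9 libraries the median r was 0.61 (lowest -0.15, highest 0.99) and the median rho was 0.60. Over the 8 libraries without Puberty 2 the median r was 0.82 and the median rho 0.76. The median r over pairs of all genes tested was 0.13 in 9 libraries and 0.04 in 8. The exact permutation test of r passed an adjusted p of 0.05 for 13 of the 45 pairs in 9 libraries and for 25 in 8 libraries, and that of rho for 10 and 13 pairs. Prepuberty 1 and Postpuberty 2 had the member means farthest from the median, and without both the median r was 0.34 in the 7 libraries left and 0.62 in the 6 left when Puberty 2 was also omitted.

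Among CX3CR1, CSF1R, AIF1, TREM2, TYROBP and the C1Q genes, the median r of their 28 pairs was 0.75 in 9 libraries and 0.90 in 8. Between these 8 genes and P2RY12 or TMEM119, the median r of the 16 pairs was 0.09 in 9 libraries and 0.25 in 8. CSF1R was higher than this median, with r = 0.67 to P2RY12 and 0.65 to TMEM119 in 9 libraries and 0.69 and 0.68 in 8. Without Prepuberty 1 and Postpuberty 2, the median r among the 8 genes was 0.53 (lowest -0.43) and that of the 16 pairs was -0.45, and without Puberty 2 as well they were 0.86 and -0.36.

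The lower agreement of P2RY12 and TMEM119 was not present in all sets of libraries. Without Puberty 2 and Postpuberty 3, the median r of the 16 pairs was 0.64 and that among the 8 genes 0.91. Without Puberty 2, Prepuberty 1 and Postpuberty 3, the median of the 16 pairs was 0.85 and that among the 8 genes 0.71, and CX3CR1 and TMEM119 had r = 0.95, C1QB and TMEM119 0.92 and AIF1 and P2RY12 0.85. With Puberty 2 kept, these medians were 0.35 and 0.76 without Postpuberty 3, and 0.23 and 0.53 without Prepuberty 1 as well. The separation of the 2 genes thus depended on Puberty 2 and Postpuberty 3 together. Leaving out Prepuberty 1 in addition raised the median of the 16 pairs without Puberty 2 and lowered it with Puberty 2. Correlated with the mean of the other 9 members over 8 libraries, TREM2 had an r of 0.97, TYROBP 0.95, CX3CR1 0.93, AIF1 0.92, CSF1R 0.91, C1QB 0.90, C1QA 0.81 and C1QC 0.76, whereas TMEM119 had 0.38 and P2RY12 0.37. This division and the sets of libraries left out were chosen after the correlations were seen, and the values are a description.

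**Figure D2:**
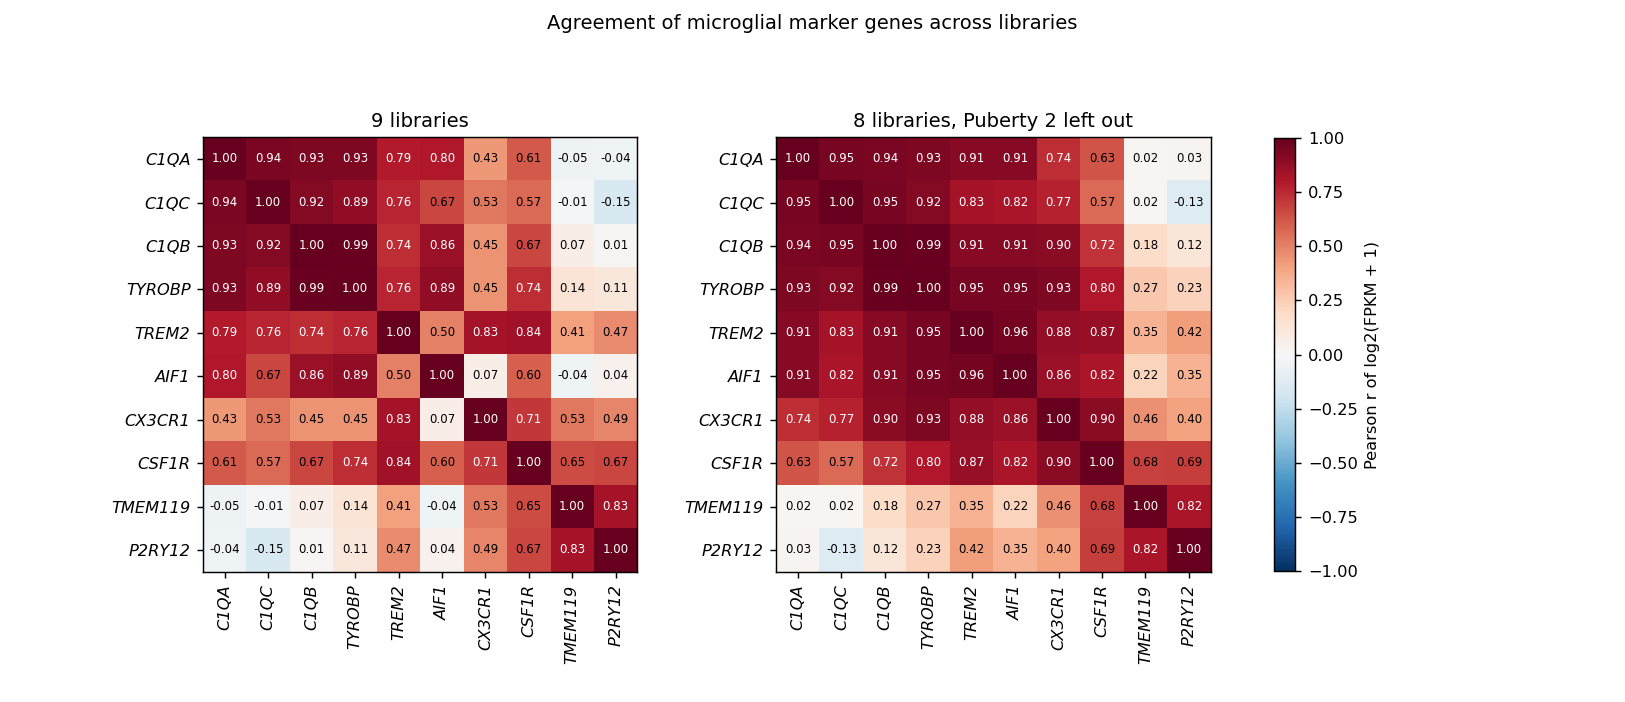
Pearson's r of log2(FPKM + 1) for each pair of the 10 members over 9 libraries (left) and over 8 libraries without Puberty 2 (right), from blue (-1) to red (1). P2RY12 and TMEM119 correlate with each other (0.83 and 0.82) and have r between -0.15 and 0.18 with C1QB and C1QC, and AIF1 and CX3CR1 have 0.07 in 9 libraries and 0.86 in 8.

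The closest pair was C1QB and TYROBP, with r = 0.99 and rho = 1 over 9 libraries (exact permutation p = 2.76e-06 and 5.51e-06, adjusted p = 0.000124 and 0.000248). The r was 0.99 again without the 2 libraries farthest from the median of C1QB. The C1QB to TYROBP ratio of FPKM stayed between 0.884 and 1.48 in all 9 libraries, although each gene varied more than 5-fold. C1QA and C1QC, chains of the same complex, had r = 0.94 and rho = 0.97 (exact permutation p = 9.09e-05 and 0.000165, adjusted p = 0.00205 and 0.00372) and r = 0.86 without the 2 farthest libraries.

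The ADP receptor P2RY12 and the membrane protein TMEM119 had r = 0.83 and rho = 0.82 over 9 libraries (exact permutation p = 0.00882 and 0.0108, adjusted p = 0.0361 and 0.0485), and r = 0.67 without the 2 libraries farthest from the median of P2RY12. Over 8 libraries they had r = 0.82 and rho = 0.79 (exact permutation p = 0.014 and 0.0279, adjusted p = 0.0286 and 0.0689), and without the 2 farthest r was 0.42, so that in these libraries the relation rested on Postpuberty 2 and Postpuberty 3. P2RY12 and CSF1R had r = 0.69 and rho = 0.81 over the same 8 libraries (exact permutation p = 0.0512 and 0.0218, adjusted p = 0.0822 and 0.0612), and r = 0.70 without the 2 farthest. The TMEM119 to P2RY12 ratio of FPKM lay between 0.864 and 1.95 in the 9 libraries. The C1QB to P2RY12 ratio, which sets a complement gene against an ADP receptor, was 5.41, 2.94 and 1.67 at prepuberty, 1.59, 11.1 and 2.46 at puberty, and 1.97, 2.92 and 23.4 at postpuberty, a 14.8-fold range. Postpuberty 3 and Puberty 2 held the 2 highest ratios, and neither the prepuberty nor the puberty ratios were separate from those of postpuberty. The 3 C1Q genes made up 57% of the summed FPKM of the members in Postpuberty 3 and 22.5% to 40.7% in the other libraries.

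Some pairs depended on whether Puberty 2 was included. AIF1, a cytoskeletal protein, and CX3CR1, a chemokine receptor, had r = 0.07 and rho = 0.30 over 9 libraries (exact permutation p = 0.861 and 0.437, adjusted p = 0.968 and 0.561). Without Puberty 2 they had r = 0.86 and rho = 0.86 (exact permutation p = 0.00694 and 0.0107, adjusted p = 0.0164 and 0.0371), and r was 0.50 when Prepuberty 1 and Postpuberty 3 were omitted as well. TREM2 and its adaptor TYROBP had r = 0.76 and rho = 0.67 over 9 libraries (exact permutation p = 0.0186 and 0.0589, adjusted p = 0.0522 and 0.12) and r = 0.95 and rho = 0.88 over 8 (exact permutation p = 0.000496 and 0.00724, adjusted p = 0.00744 and 0.0326). The TYROBP to TREM2 ratio was 1.79 to 3.52 in 8 libraries and 6.76 in Puberty 2, and the CSF1R to CX3CR1 ratio was 1.62 to 3.23 in 8 libraries and 6.54 in Puberty 2.

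The transcripts behind the sums were the same across libraries for most members and differed for P2RY12 and TMEM119. CX3CR1, C1QB and TYROBP have 1 annotated transcript each. The leading transcript held 76.8% to 91.5% of the FPKM of AIF1, 96.9% to 100% of that of TREM2 and 94% to 100% of that of C1QC in the 9 libraries. For P2RY12, the leading transcript XM_004003251.5 held 31.2% to 79.9% of the gene in 8 libraries and was listed at 0 in Puberty 2. There, the whole 8.07 FPKM of P2RY12 was assigned to XM_042235645.1, which held 0.605% to 7.3% of the gene elsewhere. In Postpuberty 2, 68.2% of P2RY12 was assigned to XM_042235638.1.

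For TMEM119, XM_027956660.3 held 99.2% of the gene in Puberty 2 and 64.9% in Prepuberty 1, at 12.2 and 12.3 FPKM. It held 2.31% to 11.5% in the other 7 libraries, where XM_027956659.3 led. The stage differences of both genes depended on whether the sum or the single transcript with the highest mean was used. With that transcript, the log2 fold change of TMEM119 was -1.22 between puberty and prepuberty, 1.11 between postpuberty and puberty and -0.11 between postpuberty and prepuberty, against -0.42, -0.12 and -0.53 for the sum. For P2RY12 it was -1.36, 0.12 and -1.25, against -0.29, -0.46 and -0.75 for the sum. Neither gene was called with that transcript, with adjusted p of 0.829, 0.78 and 1 for TMEM119 and 0.829, 0.968 and 1 for P2RY12 in limma.

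**Figure D3:**
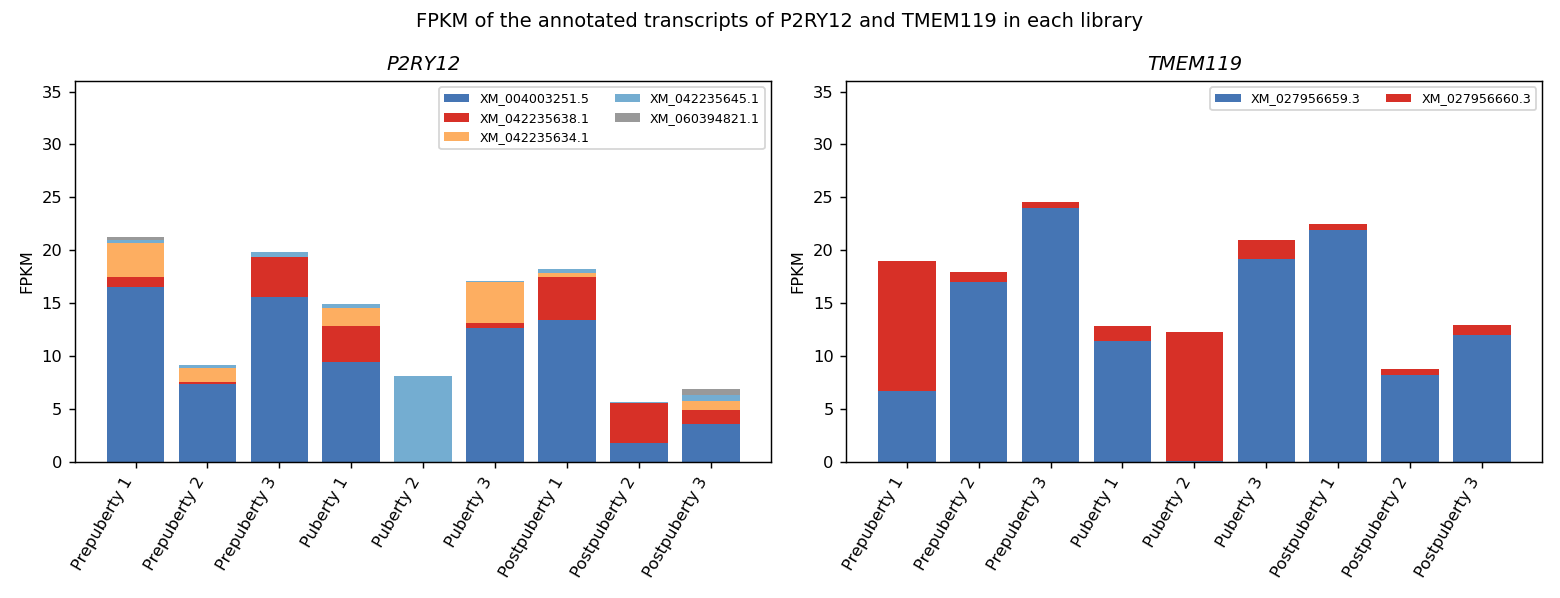
FPKM of each annotated transcript of P2RY12 (left) and TMEM119 (right), stacked for each of the 9 libraries. In Puberty 2 all 8.07 FPKM of P2RY12 come from XM_042235645.1 and 99.2% of TMEM119 comes from XM_027956660.3, which also led in Prepuberty 1.

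None of the 10 members differed between stages in the limma test. A call needed a Benjamini-Hochberg adjusted p below 0.05 over all 14238 genes tested and a log2 fold change of 1 or more in either direction. The log2 fold changes are of FPKM + 1, which understates differences of low genes. The share of all genes called was 0% in each of the 3 comparisons, and also without Puberty 2. An unadjusted limma p below 0.05 was reached by 259 genes (1.82%) between puberty and prepuberty, by 305 (2.14%) between postpuberty and puberty and by 116 (0.815%) between postpuberty and prepuberty, and by 0 members in each. The moderated F test over the 3 stages called 0 genes, with 174 (1.22%) at an unadjusted p below 0.05. Without Puberty 2, when 14209 genes were tested, an unadjusted limma p below 0.05 was reached by 236 genes (1.66%), 300 (2.11%) and 265 (1.87%) in the same order and by 231 (1.63%) in the F test, and again by 0 members in each comparison between 2 stages. The 95% confidence intervals of all 30 member differences included 0. With standard errors of 0.36 to 0.86, they also included differences of more than 2-fold for each of the 10 members in at least 1 comparison.

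From prepuberty to puberty, CX3CR1 had the lowest p of any member, with a log2 fold change of -1.01 (standard error 0.48, 95% confidence interval -2.08 to 0.07, adjusted p = 0.838 in limma). Without Puberty 2, its log2 fold change was -0.65 (adjusted p = 1). CSF1R had -0.56 ± 0.43 (standard error) and TREM2 -0.43 ± 0.56, while C1QB had -0.07 ± 0.86 and TYROBP -0.08 ± 0.71. The values of C1QB and TYROBP depended on single libraries, being -0.56 and -0.50 without Puberty 2 and 0.57 and 0.48 without Prepuberty 1, and without Prepuberty 1 CSF1R was at -0.19 and TREM2 at 0.13. AIF1 had 0.30 ± 0.55 with Puberty 2 and -0.22 ± 0.49 without it. The members had a median log2 fold change of -0.35 and 2 of 10 were above 0, beside a median of -0.14 over all genes tested. Without Puberty 2 these medians were -0.39, with 1 of 10 above 0, and 0.02. Without Prepuberty 1 they were 0.17, with 6 of 10 above 0, and -0.12. No member had puberty values that were all above or all below the prepuberty values, while 5.16% of all genes tested did (11.7% without Puberty 2, where 2 puberty libraries remain).

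From puberty to postpuberty, the log2 fold changes of the members ranged from -0.46 ± 0.49 for P2RY12 to 0.90 ± 0.86 for C1QC. Both had adjusted p = 0.78 in limma. Without Puberty 2 they were -0.76 ± 0.51 and 1.28 ± 1.01 (adjusted p = 1 for both), and the C1QC interval of -1.07 to 3.64 reached the highest of all members. CX3CR1 had 0.53 ± 0.48, and CSF1R had 0.00 ± 0.43. Without Postpuberty 3, C1QC was at -0.02, P2RY12 at -0.29 and CX3CR1 at 0.15, and without Puberty 2 CX3CR1 was at 0.18. Without Postpuberty 2, C1QC was at 1.60, CX3CR1 at 0.92 and P2RY12 at -0.16. The median was 0.02 over the members, 6 of them above 0, and 0.19 over all genes tested. Without Puberty 2 it was 0.21, with 8 members above 0, and 0.03 over all genes. The median of the members was -0.20 without Postpuberty 3, with 1 above 0, and 0.67 without Postpuberty 2, with 9 above 0. The 2 stages did not overlap for 0 members and for 7.32% of all genes tested (14.1% without Puberty 2).

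From prepuberty to postpuberty, a comparison that does not involve Puberty 2 other than in the shared estimate of spread, P2RY12 had a log2 fold change of -0.75 (standard error 0.49, 95% confidence interval -1.85 to 0.35, adjusted p = 1 in limma). TMEM119 had -0.53 (standard error 0.36, interval -1.34 to 0.28) and CSF1R -0.56 (standard error 0.43, interval -1.52 to 0.41). C1QC was at 0.46 ± 0.86 and C1QA at 0.42 ± 0.73, while AIF1, C1QB and TYROBP were at 0.03 ± 0.55, -0.03 ± 0.86 and -0.08 ± 0.71. Over the fits without 1 library each, C1QC ranged from -0.46 (without Postpuberty 3) to 1.16 (without Postpuberty 2), C1QA from -0.17 (without Postpuberty 3) to 1.17 (without Prepuberty 1) and C1QB from -0.92 (without Postpuberty 3) to 0.69 (without Postpuberty 2). P2RY12 stayed below 0, from -1.22 (without Postpuberty 1) to -0.45 (without Postpuberty 2), as did TMEM119, from -0.87 to -0.24. CSF1R, from -0.88 (without Prepuberty 2) to -0.16 (without Postpuberty 2), stayed below 0 too. So did CX3CR1, at -0.47 ± 0.48 in the main fit and from -0.85 (without Postpuberty 3) to -0.08 (without Postpuberty 2). None of these genes was called. The median was -0.11 over the members, with 3 of 10 above 0, and 0.05 over all genes tested. Over the members it was 0.45 without Prepuberty 1 and 0.36 without Postpuberty 2, each with 6 of 10 above 0. The 2 stages did not overlap for 0 members and for 4.57% of all genes tested (4.53% of the genes tested without Puberty 2). For a single gene with 3 animals per stage, the smallest two-sided p of an exact permutation test is 0.1.

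**Figure D4:**
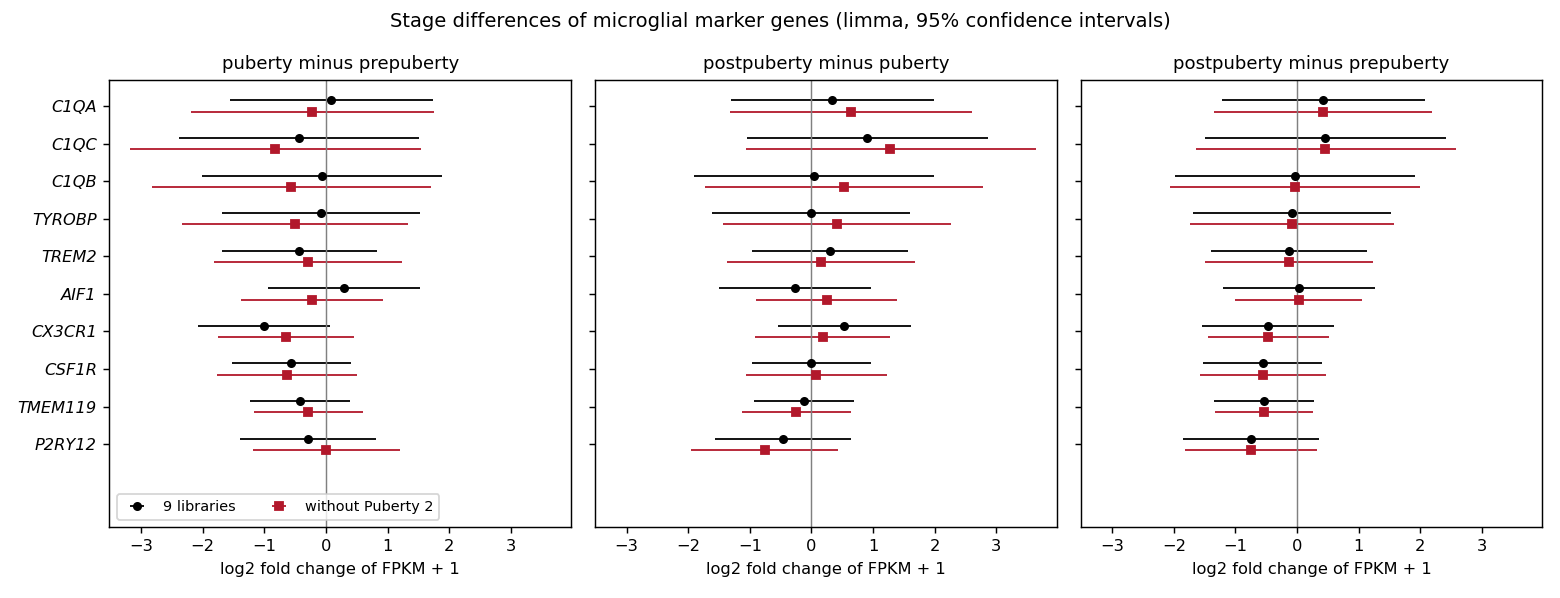
Log2 fold change of FPKM + 1 between each pair of stages (horizontal axis) for the 10 members, with 95% confidence intervals from limma, over 9 libraries (circles) and without Puberty 2 (squares). Every interval includes 0, and CX3CR1 between puberty and prepuberty (-1.01, interval -2.08 to 0.07) comes closest to leaving it out.

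How much of the variation of the members lay between stages differed from gene to gene. With 3 animals per stage, some share lies between stages even where no stage difference exists, so these shares are descriptions. The share of the variance of log2(FPKM + 1) that lay between stages had a median of 9.19% over the members and 18.9% over all genes tested, and of 13.2% and 14.3% without Puberty 2. It was lowest for C1QB (0.0708%) and TYROBP (0.2%) and highest for CX3CR1 (37.1%). TMEM119 (27.6%), P2RY12 (23.9%) and CSF1R (23.5%) also lay above the median of all genes, and the remaining members below it. Without Puberty 2 the share was 5.19% for C1QB and 5.71% for TYROBP. The lowest value was then that of TREM2 (2.66%) and the highest that of P2RY12 (32.8%). TMEM119 (27.4%), CSF1R (24.7%), CX3CR1 (24.6%) and C1QC (18.3%) were also above the median of all genes. Within prepuberty alone, C1QB ranged over 2.06 on the log2 scale and within postpuberty over 3.22, against a difference of at most 0.07 between stage means with Puberty 2 and of 0.56 without it.

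Other genes of microglia repeated the pattern of the members across animals. Of 28 further microglial genes, which include the receptors P2RY13 and GPR34 and the transcription factors SPI1 and IRF8, 27 were in the table and 26 passed the filter. Prepuberty 1 and Postpuberty 3 were the 2 highest of the 8 libraries for 21 of the 26. LAPTM5, a lysosomal membrane protein of blood-derived cells and microglia, had 160, 55.2 and 68.8 FPKM at prepuberty, 50.8, 74.3 and 71.5 FPKM at puberty, and 66.5, 34.5 and 145 FPKM at postpuberty. VSIR, an immune checkpoint protein, ranged from 20.9 FPKM in Postpuberty 2 to 75.1 FPKM in Prepuberty 1. The sum over the list was 643, 206 and 275 FPKM at prepuberty, 210, 249 and 311 at puberty, and 284, 138 and 553 at postpuberty, with 0 of the 26 genes called in any comparison and 0 at an unadjusted limma p below 0.05.

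The genes most like the members were those with the highest r to the mean standardised profile of the members over the 8 libraries, among 12312 genes with a mean of at least 1 FPKM. They were IRF8 (0.995), C1H1orf226 (0.989), VSIR (0.985), ADORA3, LOC101106452, LAT2 and ABI3 (0.984 each), CYTH4 (0.982), ACP5 (0.981) and PHPT1 (0.980). IRF8, VSIR and ADORA3 were on the list of further microglial genes. With Puberty 2 included, IRF8 had r = 0.94 and VSIR 0.96 to the profile, but PHPT1 had 0.40, with 166 FPKM in Puberty 2 against 25.7 to 54.3 elsewhere.

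Among genes that act with the members, the ligands differed in their relation to the members. The r to the mean profile of the members over 8 libraries was 0.84 for CSF1, 0.70 for IL34, 0.52 for APOE and -0.72 for CX3CL1. APOE, a lipid carrier that TREM2 binds, had 926 to 1359 FPKM in 8 libraries and 4965 in Puberty 2, and IL34, a CSF1R ligand made by neurons, had 6.28 to 18.3 FPKM in those 8 and 26.4 in Puberty 2. Of the genes that signal downstream of the receptors, 7 passed the filter, and Prepuberty 1 and Postpuberty 3 were the 2 highest libraries for 6 of them. INPP5D, a lipid phosphatase of myeloid cells, had 15.6 and 12.1 FPKM in these libraries and 3.61 to 7.93 in the rest, and LYN, a Src-family kinase, had 9.66 and 9.07 FPKM there and 1.47 to 6.63 in the rest. The same was true of 9 of 12 other complement genes. C3, the central protein of the cascade that C1q starts, had 137 FPKM in Prepuberty 1, 56.6 in Postpuberty 3 and 7.64 to 47.6 in the rest, while CD59, a complement inhibitor found on most cells, had 52.1 to 132 FPKM with the lowest value in Puberty 2. None of the tested genes of these lists was called between stages, and 0 had an unadjusted limma p below 0.05.

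The summed markers of other immune cells varied with the members over the 8 libraries. Lymphocyte genes were highest in the same libraries, with Prepuberty 1 and Postpuberty 3 the 2 highest of 8 for 9 of the 10 genes tested. Their summed FPKM was 38.3 in Prepuberty 1, 72.6 in Postpuberty 3, 6.01 in Puberty 2 and 4.29 to 14.5 in the other 6. This sum had r = 0.87 and rho = 0.81 to the mean of the members over 8 libraries, given as descriptions. By stage, the sum ranged from 5.09 to 38.3 at prepuberty, from 4.29 to 9.83 at puberty and from 5.59 to 72.6 at postpuberty. The T cell gene CD3E had 8.5, 1.07 and 1.62 FPKM at prepuberty, 0.69, 0.765 and 2.1 FPKM at puberty, and 1.05, 0.981 and 16.8 FPKM at postpuberty, and CD5, another T cell gene, ranged from 1.55 to 6.14 FPKM.

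Macrophages of the brain's borders share most microglial genes and express MRC1, LYVE1 and others besides. Of 10 such genes, 6 were in the table, and their summed FPKM was 7.86 to 15.5 at prepuberty, 11.9 to 17.2 at puberty and 8.39 to 25.7 at postpuberty, with the highest value in Postpuberty 3. MRC1 did not exceed 1.44 FPKM and LYVE1 0.463 FPKM. MRC1 was nevertheless highest in Prepuberty 1 (1.44 FPKM) and Postpuberty 3 (0.892 FPKM), with r = 0.88 to the mean profile of the members over 8 libraries, and the sum of the list had r = 0.81 and rho = 0.86 to the mean of the members, given as descriptions. FOLR2 and STAB1 reached 20.2 and 4.53 FPKM. The monocyte and neutrophil list summed to 2.14 to 7.38 FPKM over 7 genes, with S100A8 at no more than 0.564 FPKM, CSF3R at no more than 0.287 and LYZ at no more than 1.91. Its sum had r = 0.77 and rho = 0.81 to the mean of the members over 8 libraries, given as descriptions. The part of lymphocytes, border macrophages, monocytes and neutrophils in the levels of the members was not tested.

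Neuronal genes had negative correlations with the members, but Postpuberty 3 was an exception. There the neuronal sum (1800 FPKM) and the sum of the members (621 FPKM) were both the highest of all libraries. The neuronal sum had r = -0.40 and rho = -0.38 to the mean of the members over 8 libraries, given as descriptions. Over the 8 libraries, all 9 genes tested had r below 0 to the mean profile of the members, with a median of -0.51, and 0 of 9 had Prepuberty 1 and Postpuberty 3 as the 2 highest libraries. SNAP25, a synaptic protein with r = -0.74, had 144 FPKM in Prepuberty 1 and 340 in Postpuberty 3, within a range of 57 to 558, and NEFL, a neurofilament with r = -0.11, had 260 and 500 FPKM there. The part of neuronal content in the levels of the members was not tested. The count of genes with these 2 libraries highest was also 0 of 7 for astrocytes, 0 of 7 for oligodendrocytes, 0 of 5 for their precursors and 0 of 6 for endothelium. The share over all genes tested was 10.4%, and in lists this short a count of 0 cannot be told apart from it. Endothelial genes and some astrocyte genes nevertheless varied with the members, since the r to the mean profile of the members over 8 libraries exceeded 0.8 for 2 of 7 astrocyte genes (AQP4 with 0.89 and GFAP with 0.87) and for 2 of 6 endothelial genes (PECAM1 with 0.87 and VWF with 0.84). Other astrocyte genes had r below 0, with -0.79 for the glutamate transporter SLC1A2, -0.60 for SLC1A3 and -0.20 for ALDH1L1, and the median over the 7 was 0.17. All 6 endothelial genes had r above 0, with a median of 0.75. The summed FPKM of the astrocyte list had r = 0.83 and rho = 0.86 to the mean of the members over these 8 libraries, and that of the endothelial list 0.73 and 0.74, given as descriptions. For the oligodendrocyte sum they were 0.61 and 0.64. MBP had r = 0.74 to the mean profile of the members, and the median over the 7 oligodendrocyte genes was 0.27. The astrocyte sum, to which GFAP and S100B contributed most, was 9429, 3909 and 5592 FPKM at prepuberty, 5618, 8158 and 6912 at puberty, and 7644, 3879 and 6429 at postpuberty. Postpuberty 3 was thus below Puberty 2, Puberty 3 and Postpuberty 1 in this sum, unlike in the sum of the members. The part of these cells in the levels of the members was not tested. GFAP, the intermediate filament of astrocytes, was highest in Prepuberty 1 at 6624 FPKM and was 4693 FPKM in Postpuberty 3, and MBP of myelin was at 7824 and 3920 FPKM in these libraries.

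**Figure D5:**
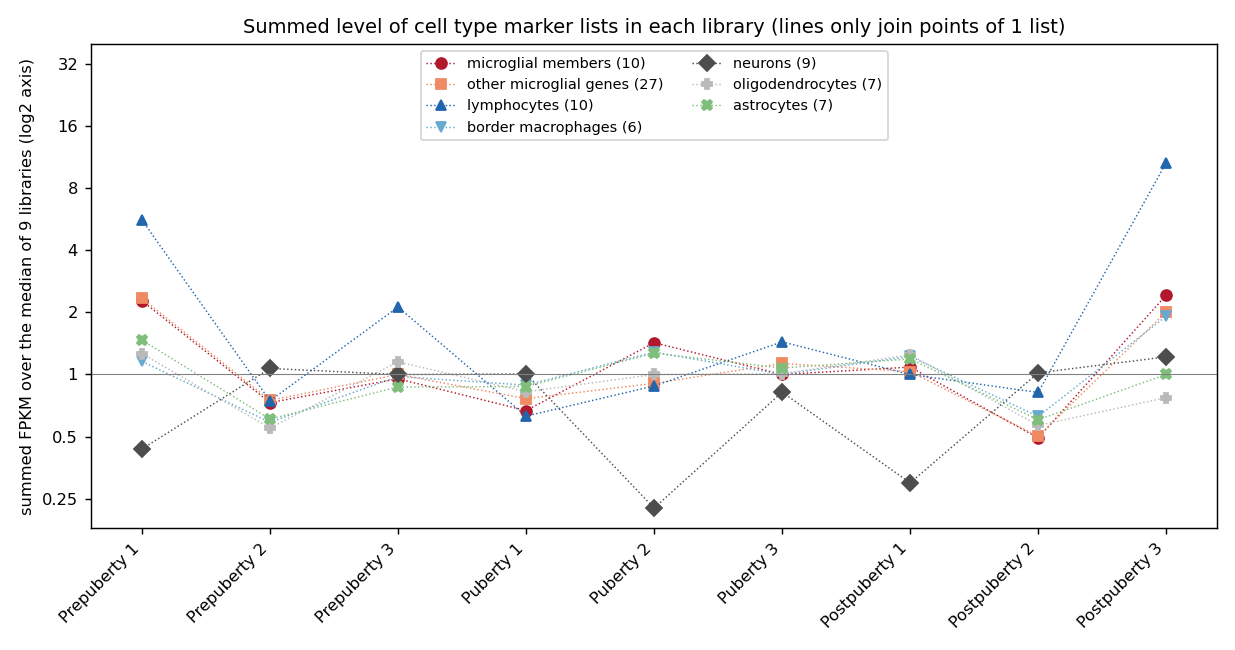
Summed FPKM of marker lists in each library, divided by the median of the 9 libraries (log2 axis), with the number of genes of each list in the table in the key. The lymphocyte sum (38.3 and 72.6 FPKM) and both microglial sums are highest in Prepuberty 1 and Postpuberty 3, while the neuronal sum is 644 FPKM in Prepuberty 1 and 1800 in Postpuberty 3.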

How the data were processed

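Hypothalamus RNA of 9 ewes, 3 per stage, was sequenced by the authors, who extracted it with TRIzol. Reads were trimmed with Trimmomatic (0.32 in the submitters' processing notes), aligned with HISAT2 to ARS-UI_Ramb_v3.0 and quantified with StringTie. The deposited values are FPKM per transcript, normalized by length and mapped fragments, although the table is described as raw counts, so limma was used in place of a test for counts. The 76684 mRNA transcripts with RefSeq identifiers were matched to gene symbols (76682 matched) and summed to 21284 genes. Mapped reads, as the study lists them, ranged from 19347227 in Puberty 2 to 23966519. Without read counts per gene, the precision of a single value is unknown and rests on the spread between animals.

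Stages were compared with limma 3.58.1 (R 4.3.3) on log2(FPKM + 1), with a trend of variance, all 9 libraries in 1 fit and no further scaling. A gene was tested when its mean reached 0.5 FPKM in at least 1 stage, and p-values were adjusted over all genes tested. The p-values measure the spread between 3 animals per stage. The fit was tested on simulated data without changes and with known changes that were larger than any member difference. That test does not show whether differences as small as those of the members would be called. Correlations used all 362880 orders of 9 libraries or 40320 of 8. Alternatives covered the pseudocount (0.1), filters, scaling, array weights, variance models, the replicate number as a block, the main transcript in place of the sum, and leaving out each library. All 10 members are named, as are the 10 genes most like them and, where a marker list is described by examples, genes among the 2 with its highest means. Other genes named (GNRH1, AGRP, SIM1, NKX2-1, P2RY13, GPR34, SPI1, TRH, POMC, AVP, OXT, HCRT, AQP4, SLC1A2, SLC1A3, ALDH1L1, PECAM1, MRC1, LYVE1, S100A8, CSF3R, SALL1, C1R, C1S, CSF1 and CX3CL1) were chosen after their values were seen. The members and lists were chosen with earlier results of these data known. Tables and correlations were made with pandas 2.3.3, scipy 1.17.1 and numpy 2.4.6 in Python 3.11.15, and plots with matplotlib 3.10.9.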

Additional observations from a re-analysis of the deposited data

How the results depend on the processing

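None of the 30 member differences was called under any of the 660 alternative values, and the lowest adjusted p among them was 0.396, for P2RY12 between postpuberty and prepuberty with array weights (limma). Array weights, which gave Puberty 2 a weight of 0.0653, called 4 genes of all tested between puberty and prepuberty, 1 between postpuberty and puberty, 0 between postpuberty and prepuberty and 3 in the F test, none of them a member. An unadjusted p below 0.05 was reached by P2RY12 and TMEM119 between postpuberty and prepuberty with array weights (-1.11 and -0.79, beside 8.74% of all genes tested) and without Postpuberty 1 (-1.22 and -0.87, beside 0.659%). It was reached by CX3CR1 between puberty and prepuberty with equal totals and without Prepuberty 2, Puberty 3, Postpuberty 2 or Postpuberty 3 (-1.27 to -1.01, beside 1.35% to 4.4%). The median log2 fold change of the members depended on single libraries. Leaving out 1 library at a time, it ranged from -0.56 to 0.17 between puberty and prepuberty (above 0 without Prepuberty 1), from -0.20 to 0.67 between postpuberty and puberty (-0.18 without Puberty 1, -0.20 without Postpuberty 3, 0.67 without Postpuberty 2) and from -0.54 to 0.45 between postpuberty and prepuberty (0.45 without Prepuberty 1, 0.36 without Postpuberty 2). Between postpuberty and puberty it was -0.12 with upper quartile scaling, and between postpuberty and prepuberty 0.29 with array weights. With the transcript of highest mean in place of the sum, TMEM119 between postpuberty and puberty was 1.11 against -0.12, and P2RY12 0.12 against -0.46. The median pairwise r ranged from 0.49 (without Postpuberty 2) to 0.82 (without Puberty 2). It was 0.48 without Prepuberty 1 and Postpuberty 3 and 0.79 without Puberty 2 and with quantile normalization, both chosen after seeing the data. The number of members whose stages did not overlap was 1 between puberty and prepuberty when totals were made equal (5.998% of all genes tested). Leaving out 1 library, it ranged from 0 to 3 between puberty and prepuberty (3 without Prepuberty 2, beside 14.5% of all genes tested, and 2 without Puberty 3, beside 15.9%), from 0 to 3 between postpuberty and puberty (3 without Postpuberty 2, beside 17.8%, and 1 without Postpuberty 1, beside 14.0%) and from 0 to 2 between postpuberty and prepuberty (2 without Postpuberty 1, beside 11.04%, and 1 without Prepuberty 1, beside 13.6%, or without Prepuberty 2, beside 17.3%), and fewer libraries overlap less readily.

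No clear pairing of the animals by replicate number was seen, although the check used cannot exclude one. The correlation of deviations from the stage means between same-numbered libraries ranged from -0.31 to 0.51 over 9 pairs, and 3 of the 9 libraries correlated best with a library of their own number. With the replicate number as a block, limma called 0 genes in every comparison, and CX3CR1 between puberty and prepuberty (-1.01, adjusted p = 0.849) was the 1 member at an unadjusted p below 0.05, beside 1.97% of all genes tested. The block leaves every log2 fold change as it was, since each number occurs once in each stage, and the medians of the members (-0.35, 0.02 and -0.11) therefore say nothing of the pairing. With 3 animals per stage, the intervals given above are wide, and a difference that lies within them may have gone undetected.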

Other observations

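SALL1, a transcription factor of undisturbed microglia that other brain cells also express, did not follow the other genes of its list. It had 6.32, 8.04 and 10.3 FPKM at prepuberty, 10.8, 0.763 and 9.88 FPKM at puberty, and 6.01, 7.42 and 1.89 FPKM at postpuberty. Its lowest libraries were thus Puberty 2 and Postpuberty 3, the libraries with the highest C1QB to P2RY12 ratios, 11.1 and 23.4. CX3CL1, the fractalkine ligand of CX3CR1 that neurons make, had 1.66 FPKM in Prepuberty 1, 0.983 in Puberty 2 and 1.75 in Postpuberty 3, its 3 lowest values, and 2.84 to 6.56 FPKM in the other 6 libraries. The serine proteases C1R and C1S, which join C1q in the first complement component, had 30 and 27.8 FPKM in Prepuberty 1 and 41 and 33 FPKM in Postpuberty 3. In Puberty 2, where C1QB had 89.7 FPKM, they had 5.48 and 4.78 FPKM.

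Activated microglia are described by a partly separate set of genes, of which 13 passed the filter, and Prepuberty 1 and Postpuberty 3 were the 2 highest of 8 libraries for 9 of them. SPP1, a secreted phosphoprotein also made by oligodendrocytes, had 257 and 324 FPKM there, 33.9 FPKM in Puberty 2 and 111 to 245 FPKM in the other libraries. CTSD, a lysosomal protease of most cells, ranged from 120 to 180 FPKM in 8 libraries and was 339 FPKM in Puberty 2. None of the 13 genes was called between stages in limma, and 0 had an unadjusted p below 0.05. CSF1, the other ligand of CSF1R, had 16 FPKM in Prepuberty 1, 15.5 in Postpuberty 3 and 1.32 in Puberty 2, and 3.12 to 11.1 FPKM in the remaining libraries.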
